A study of Mus musculus with 33 samples.

Results

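Cd209a MHC class II myeloid cells were single cells that carried transcripts of Cd209a, a C-type lectin of the DC-SIGN family, together with high MHC class II transcripts. A cell was counted as a member if it had 500 or more gene UMIs (unique transcript counts), 200 or more genes and no more than 15% of UMIs from mitochondrial genes. It also needed at least 1 UMI of Cd209a, at least 5 of H2-Ab1 and at least 5 of H2-Eb1, and none of Cd79a, Cd3e and Siglech, which mark B cells, T cells and plasmacytoid dendritic cells. The rule found 403 members among 55366 kept cells of 32 mouse samples. These came from bone, brain, liver and lung after an intracardiac injection, and from each tissue both a biotin positive and a biotin negative sort were sequenced, with 4 replicates per sort. SAMENT had placed the biotin: tumour cells that were injected bear an enzyme which biotinylates the cells around them, so tagged cells end up in the positive sort and untagged cells of the same tissue in the negative sort. All groups received the labelling substrate overnight. The labels do not state strain, sex, age or tumour line, and no sample without an injection was analysed here. A pooled bone experiment, with an injection that the labels call IIA, held a positive and a negative sample for each of 6 injections, and the same rule was applied to it as a separate set.

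Dendritic cells take up antigen in tissues and present its peptides on MHC class II to CD4 T cells. The conventional type 2 subset and monocytes that have differentiated in tissue both can carry Cd209a, Mgl2, Clec10a and MHC class II, whereas the conventional type 1 subset is known by Xcr1 and Clec9a and presents antigen to CD8 T cells. MHC class II genes are switched on together by the coactivator CIITA, which acts through a shared set of promoter boxes that include an inverted CCAAT box bound by NF-Y.

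The MHC class II genes lie close together on chromosome 17. The promoters of H2-Eb1, which the rule used, of H2-Aa and H2-DMb1, which lead the members, and of H2-Oa are shown because that shared box can be read in them. H2-Ab1 lies at chr17:34257689-34269419 on the plus strand and H2-Eb1 at chr17:34305867-34316674 on the plus strand (GENCODE M21, GRCm38). Cd209a lies at chr8:3743397-3748984 on the minus strand and Tnip3 at chr6:65525313-65634040 on the plus strand. The letters GATTGG, read on either strand, were present in the promoter window of 8 of 8 MHC class II genes found in the RefSeq table (build GRCm38.p6), of 9 looked for, where the other was H2-Ab1. H2-DMa has a pair of windows there and the letters stand in 1 of them. Of all 32851 windows of the same 300 bases, from 250 before to 50 after a start, 16.1% hold them. A match describes letters only. In the following windows, written 5′ to 3′ on the strand of the gene, capitals mark GATTGG or its complement CCAATC:
H2-Eb1: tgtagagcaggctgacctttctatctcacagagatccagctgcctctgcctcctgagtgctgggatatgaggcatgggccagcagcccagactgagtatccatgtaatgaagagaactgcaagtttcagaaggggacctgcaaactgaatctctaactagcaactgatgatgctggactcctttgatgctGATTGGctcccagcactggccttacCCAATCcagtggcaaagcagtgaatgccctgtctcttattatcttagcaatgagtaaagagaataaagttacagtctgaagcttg
H2-Aa: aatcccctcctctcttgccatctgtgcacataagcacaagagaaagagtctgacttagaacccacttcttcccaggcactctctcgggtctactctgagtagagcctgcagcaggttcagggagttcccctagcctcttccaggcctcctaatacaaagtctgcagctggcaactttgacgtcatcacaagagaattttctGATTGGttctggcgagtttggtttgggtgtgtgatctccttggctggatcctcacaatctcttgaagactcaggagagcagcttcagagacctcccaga
H2-DMb1: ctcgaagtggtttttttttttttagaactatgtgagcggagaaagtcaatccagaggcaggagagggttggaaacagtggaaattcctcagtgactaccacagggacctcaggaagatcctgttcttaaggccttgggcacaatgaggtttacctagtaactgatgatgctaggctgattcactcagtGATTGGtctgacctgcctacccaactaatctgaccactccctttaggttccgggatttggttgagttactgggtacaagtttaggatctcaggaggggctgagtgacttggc
H2-Oa: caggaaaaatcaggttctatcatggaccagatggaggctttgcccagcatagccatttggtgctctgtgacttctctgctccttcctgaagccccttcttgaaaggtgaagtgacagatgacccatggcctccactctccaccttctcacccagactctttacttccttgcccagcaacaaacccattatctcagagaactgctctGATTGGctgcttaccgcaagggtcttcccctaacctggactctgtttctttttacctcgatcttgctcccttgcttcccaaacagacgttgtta
These windows are chr17:34305617-34305916 (plus) for H2-Eb1, chr17:34287774-34288073 (minus) for H2-Aa, chr17:34152941-34153240 (plus) for H2-DMb1 and chr17:34092129-34092428 (plus) for H2-Oa. The letters begin at position -60 in H2-Eb1, where the complement follows at -35, at -49 in H2-Aa, at -62 in H2-DMb1 and at -44 in H2-Oa, counted from the start of the gene.

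The samples held 497940 to 44874529 UMIs in total, with medians of 2606 to 11313.5 per kept cell. Members had a median of 8169 UMIs, with medians of 5 UMIs of Cd209a, 59 of H2-Ab1 and 54 of H2-Eb1. Samples with the same replicate number shared no cell barcode in 112 pairs, and samples with different numbers shared 325 over 384 pairs, with at most 7 in a pair. The 8 samples of replicate 1 held 186 members, or 46.2%, followed by 114, 57 and 46 in those of replicates 2, 3 and 4. Nothing in the labels says that replicates came from separate animals, so p-values measure the spread between these samples.

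Near the edge of the rule, 84 members had exactly 1 Cd209a UMI, and 1312 cells met every other condition with 0. The lower of H2-Ab1 and H2-Eb1 was 5 to 9 UMIs in 18 members. It was 1 to 4 in 25 cells just outside and 0 in 143, and 98 cells failed through Cd79a, Cd3e or Siglech alone. Free Cd209a RNA was rare: a Cd209a UMI was found in 33 of 24214 neutrophils (0.136%; exact 95% interval 0.0938% to 0.191%; median 6149.5 UMIs) and in 6 of 3306 T cells (0.181%; median 3522 UMIs). Of 1715 cells with the MHC class II levels of the rule and no UMI of Cd79a, Cd3e and Siglech, 403 (23.5%, median of the 1715 cells 8054 UMIs) had a Cd209a UMI. The 1715 are here called MHC class II cells. Neutrophils were cells with at least 50 UMIs of S100a8 and S100a9 together and at most 1 of H2-Ab1. Intervals of this kind cover counting error only.

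Apart from the genes of the rule, members were led by 2 lectins, an inhibitor of NF-kB signalling, a chemokine and the rest of the MHC class II machinery. Levels here are CPM, the UMIs of a gene summed over the members of a sample and scaled to a common total, in the 14 samples with at least 10 members. Because the cells were chosen by part of this pattern, levels beside other cells are a description with no test. Mgl2, a galactose-binding lectin, had a lowest, median and highest level of 0, 469 and 1336 CPM, against a mean of 12 CPM in all other kept cells of the same samples. It was above the other cells in 13 of 14 samples. Tnip3, an inhibitor of NF-kB signalling and the marker of these cells that the rule did not use, ranged from 27.0 over a median of 391 to 1267 CPM, against 13.5 CPM. It was above the other cells in 14 of 14 samples. This marker was chosen with earlier results of these data known, so its level is no separate check of the label.

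Ccl17, a chemokine that attracts CCR4-bearing T cells, ranged from 0 over 203 to 1475 CPM and was above the other cells in 11 of 14 samples. H2-Aa, the alpha chain that pairs with H2-Ab1, ranged from 5992 over 9246 to 11046 CPM, against 656 CPM. Cd74, the invariant chain that escorts MHC class II, ranged from 12294 over 20785 to 27304 CPM, against 1688 CPM. H2-Aa and Cd74 were high in every sample, whereas Mgl2 and Ccl17 reached 0 in some. Tnfsf9, the ligand of the T cell receptor 4-1BB, ranged from 18.8 over 231 to 702 CPM, and the lectin Clec4b1 had a lowest level of 73.1 and a median of 202 CPM. With 10 CPM added to both sides, the ratio of members to other cells was 25.7 for Mgl2, 17.7 for Tnip3, 16.1 for Ccl17, 13.2 for H2-Aa and 12.3 for Cd74. It was 11.0 for Tnfsf9, 10.3 for Clec4b1 and 9.53 for H2-DMb1, a chain of the peptide exchange factor H2-DM. The 20 genes with the largest ratios ended at 4.63 for Klrb1b and included Slamf7, H2-DMa, Ckb, Fgfr1, Ccnd1, Klrd1, Olfm1, the coactivator Ciita, Clec10a, Avpi1 and Flt3, the receptor of the dendritic cell growth factor FLT3L. Of these 20, 16 were above the other cells in 14 of 14 samples, and 20 of 20 were above them in the members of the IIA bone samples.

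**Figure D1:**
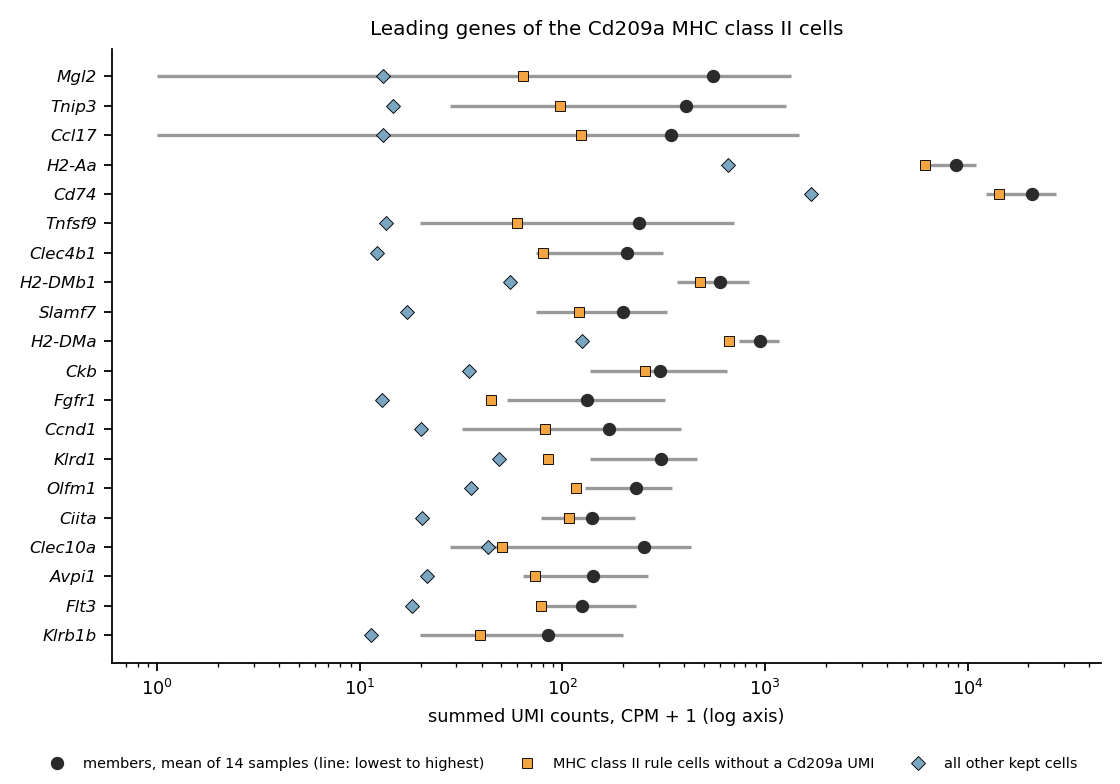
Levels of the 20 genes with the largest ratio of members to other kept cells, as CPM plus 1 on a log axis. Black points are means over 14 samples with the lowest to highest sample as a line, orange squares are MHC class II cells without a Cd209a UMI, and blue diamonds are all other kept cells; the grey lines of H2-Aa and Cd74 are short, and those of Mgl2 and Ccl17 reach 0 CPM.

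Set beside MHC class II cells without a Cd209a UMI in the same 14 samples, some lectins had large ratios and H2-Aa and Cd74 small ones; 8 of 22 C-type lectins were higher in members. The ratio was 7.79 for Mgl2, 5.20 for Cd209d, 4.39 for Clec10a, 3.94 for Tnip3, 3.61 for Tnfsf9 and 3.36 for Klrd1, an NK receptor chain. For H2-Aa it was 1.42 and for Cd74 1.46, and 11 of 16 genes of the MHC class II list were higher in members. Genes of the conventional type 1 subset and of macrophages were lower in members. Irf8, a transcription factor of that subset, had a ratio of 0.14, Xcr1 of 0.17 and Clec9a of 0.28. The lysosomal protease Lgmn had 0.35, and the complement genes C1qa and C1qb 0.11 each; each of these was above the MHC class II cells in 0 of 14 samples.

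Of the other lectins of the Cd209 family, Cd209d had a UMI in 17.6% of members, Cd209c in 8.19%, Cd209b in 4.96% and Cd209e in 3.47%. No member had a UMI of Cd209f or Cd209g. In the IIA bone members Cd209c was higher, at 295 CPM with a UMI in 44.4%, while Cd209d was at 10.3 CPM. These genes are near copies of each other, so the assignment of reads among them is uncertain.

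Beside other cells, marker lists of whole cell types gave a dendritic cell profile, with 0 genes of the B cell, T cell and neutrophil lists higher in members. Of 10 genes shared by conventional dendritic cells, 10 had a higher mean in members than in other cells, and 9 of these by more than 2-fold. Their summed level was 958 to 1701 CPM over the 14 samples and above that of other cells in 14 of 14. Examples are Cbfa2t3, a dendritic cell transcriptional corepressor, with a ratio of 4.57, Kmo with 4.27, Itgax, the integrin CD11c, with 3.86 and Dpp4 with 3.81. Of 12 genes of the type 2 subset 7 were higher, and of 11 genes of the type 1 subset 6 were. Against MHC class II cells without a Cd209a UMI these counts were 9 of 12 and 0 of 11. Of 12 classical monocyte genes 2 were higher, and the summed level was below that of other cells in 14 of 14 samples. Ms4a4c was among the higher ones, with a ratio of 2.12, while Ly6c2, the usual monocyte surface marker, was at 0.14 and Vcan at 0.09. Of 12 macrophage genes 2 were higher. Of the neutrophil list 0 of 12 genes were higher, of the B cell list 0 of 8 and of the T cell list 0 of 8. The summed neutrophil level in members nevertheless ran from 999 to 28954 CPM, against a median of 72983 CPM in other cells. Its median in members, 2549 CPM, was above the 1313 CPM of the shared dendritic cell list. Of the 12 neutrophil genes, 6 had a UMI in at least 20% of members.

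Among antigen presentation genes, 12 of 16 on the MHC class II list were higher in members than in other cells, with a summed level of 22362 to 43999.6 CPM against a median of 4530 CPM. Of the 4 that were not, H2-Eb2, a class II beta chain, had a UMI in 3.72% of members. The peptide exchange regulators H2-Oa and H2-Ob had ratios of 4.39 and 1.58, and Ifi30, a thiol reductase of the antigen processing compartment, had 3.15. Of 16 costimulatory and checkpoint ligands, 13 were higher, among them Cd83 with a ratio of 3.42, Icosl, the ligand of ICOS, with 2.18, Cd86 with 1.70 and Cd40 with 1.76. Cd274, which encodes PD-L1, was at 0.84. Of 18 interferon stimulated genes 12 were higher and of 13 NF-kB feedback genes 9 were, with median ratios of 1.14 and 1.13.

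The genes detected varied between members. Of the 403, 82.1% had a UMI of the chemokine receptor Ccr2, 63.3% of Sirpa, 63.0% of the transcription factor Klf4, 59.1% of Flt3, 58.3% of the activation marker Cd83 and 68.5% of the cytokine Il1b. In contrast 28.8% had a UMI of Irf4, 19.4% of Ly6c2, 8.68% of Ccr7, the receptor that guides dendritic cells to lymph nodes, 3.72% of Clec9a and 0.993% of Xcr1. Tnip3 and Mgl2, with UMIs in 51.4% and 47.6%, tended to be found in the same cells. Of members with Tnip3, 66.7% had Mgl2, 44.0% Ccl17, 79.7% Cd83 and 66.2% Tnfsf9. Of members without it, 27.6% had Mgl2, 8.16% Ccl17, 35.7% Cd83 and 24.0% Tnfsf9. Of members with Mgl2 50.5% had Ccl17, and of those without it 4.74%. Clec10a did not follow this pattern and was found in 54.2% of members with Mgl2 and 54.5% of those without. These shares pool samples that differ in their levels. Within samples of at least 10 members, with at least 3 cells on each side, Mgl2 was more frequent among members with Tnip3 in 8 of 11 samples, Ccl17 in 9, Cd83 in 9 and Tnfsf9 in 10. Averaged over these 11 samples, Mgl2 was found in 55.7% of members with Tnip3 and 27.1% of those without. Ccl17 was more frequent among members with Mgl2 in 9 of 10 samples, and Clec10a in 6 of 10. The cells with Tnip3 were also deeper, with a median of 8837 UMIs against 7163, and the part of depth in these shares was not tested. Flt3 was found in 60.3% of members with Ly6c2 and in 58.8% of those without it.

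Between tissues, the share of kept cells that were members was highest on average in brain and lowest in bone. In biotin negative brain the shares were 1.46%, 3.98%, 2.37% and 0.840% in replicates 1 to 4, from 30, 58, 26 and 24 members. In biotin negative liver they were 1.75%, 0.642%, 0.643% and 0.552%, from 59, 16, 10 and 7 members. In biotin negative lung they were 0.398%, 0.595%, 0.630% and 0.292%, from 11, 15, 14 and 9 members. Brain lay above lung in every pair of samples, and liver and lung overlapped. In biotin negative bone 18, 7, 0 and 2 members gave 0.608%, 0.272%, 0% and 0.0571%; 0 of 2446 cells allows a share of up to 0.123%. The mean was 2.16% ± 1.37 in brain and 0.897% ± 0.572 in liver. For lung it was 0.479% ± 0.161 and for bone 0.234% ± 0.275 (SD, n = 4 each). An exact permutation test gave p = 0.0286 (adjusted p = 0.0857 over 6 pairs of tissues, n = 4) for brain against bone and for brain against lung, the smallest p that 70 assignments allow. For bone against liver it gave p = 0.0571 (exact, adjusted 0.114, n = 4), and for the other 3 pairs p = 0.143 (exact, n = 4). No pair therefore passed 0.05 after adjustment. The share of members among a tissue's sorted cells also depends on how many other cells were recovered: neutrophils made up 28.5% to 64.5% of the kept cells in biotin negative brain and 25.5% to 87.1% in bone.

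**Figure D2:**
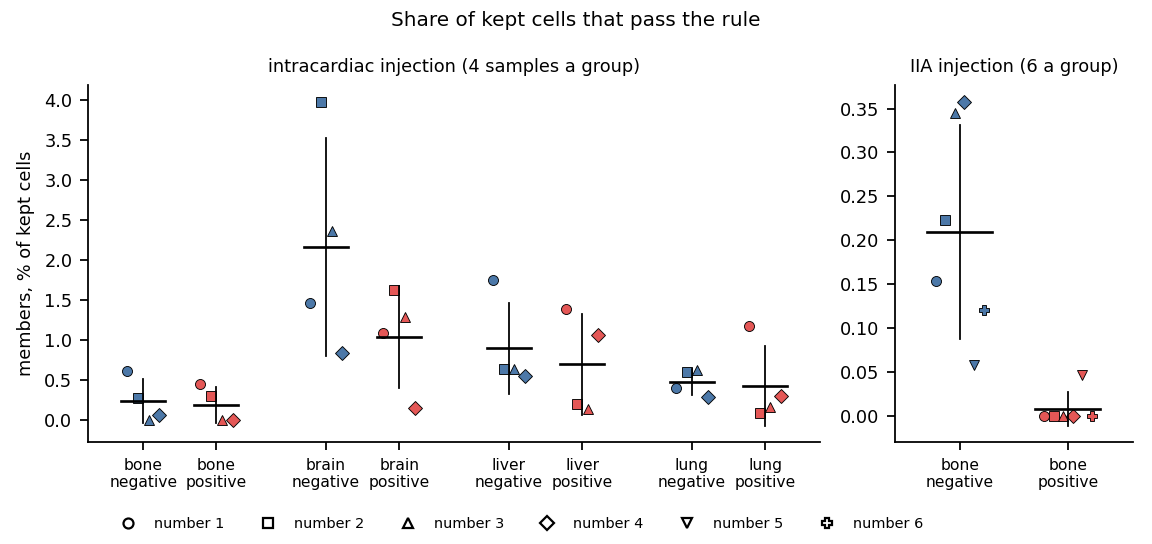
Members as a percentage of kept cells in each sample (left, intracardiac injection; right, IIA injection, with its own axis). Points are samples shaped by replicate or injection number, blue for biotin negative and red for biotin positive, horizontal bars are means and vertical lines 1 SD; the 4 negative brain samples lie between 0.840% and 3.98%, and 5 of 6 positive IIA samples lie at 0.

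Members were found in both sorts of all 4 tissues, and no tissue showed a difference between tagged and untagged cells that passed its test. In biotin positive brain 6, 11, 4 and 1 members gave 1.09%, 1.63%, 1.29% and 0.149%, a mean of 1.04% ± 0.634 (SD, n = 4) against 2.16% in the negative sort. Each of the 4 positive brain samples was below the negative sample of the same number, but the groups overlapped, and the difference of -1.12 percentage points had p = 0.229 (exact permutation test, two-sided, adjusted p = 0.914 over 4 tissues). In biotin positive liver 17, 2, 1 and 1 members gave 1.39%, 0.193%, 0.135% and 1.06%, the last from 94 kept cells. In biotin positive lung 36, 2, 2 and 2 members gave 1.17%, 0.0843%, 0.164% and 0.295%, so 1 sample held 36 of the 42. In biotin positive bone 9, 3, 0 and 0 members gave 0.448%, 0.294%, 0% and 0%, with upper limits of 0.484% and 0.347% for the empty samples. Positive and negative means were 0.696% ± 0.629 and 0.897% in liver, 0.429% ± 0.503 and 0.479% in lung, and 0.185% ± 0.223 and 0.234% in bone (SD, n = 4). Their exact permutation p-values were 0.714, 0.943 and 0.83 (n = 4, all adjusted to 0.943), and each of these 3 differences turned its sign when single samples were left out.

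The positive minus negative difference itself was lower in brain than in the other tissues, but this rested on the scale and on 1 replicate number. The mean difference was -1.12 percentage points in brain and -0.100 in the other 12 pairs, a gap of -1.02 (exact permutation over the 16 pairs, p = 0.00275, adjusted p = 0.0110 over 4 tissues). With every cell thinned to 2000 UMIs the gap was -0.821 (exact p = 0.0209, adjusted 0.0835). Without replicate 2 of brain it was -0.615 (exact p = 0.0308, adjusted 0.123). On the log2 scale of shares brain differed by -1.06 and the other tissues by -0.25, a gap of -0.81 (exact p = 0.30, adjusted 0.60).

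Among MHC class II cells, a denominator added after the data had been seen, members formed a smaller part of the tagged than of the untagged cells in brain. They made up 30%, 27.5%, 20.0% and 11.1% of MHC class II cells in positive brain and 50.8%, 42.0%, 30.2% and 40.7% in negative brain. The groups did not overlap, yet the difference of -18.8 percentage points had the smallest p the design allows, 0.0286 (exact permutation test, adjusted p = 0.114 over 4 tissues, n = 4). In lung the means were 8.45% ± 7.05 positive and 22.5% ± 5.77 negative (SD, n = 4), lower in 4 of 4 numbers, with p = 0.0571 (exact, adjusted 0.114). In bone they were 6.13% ± 7.27 and 31.4% ± 21.5 (SD, n = 4; exact p = 0.143, adjusted 0.190), a difference of -25.2 points that became -35.7 (exact p = 0.0286, adjusted 0.0571) without negative bone replicate 3, which held no member. In liver they were 19.7% ± 21.1 and 22.8% ± 9.24 (SD, n = 4; exact p = 0.83), where 1 positive sample with 1 member among 2 such cells gave 50%. None of the 4 passed after adjustment.

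In the IIA bone samples members were nearly absent from the tagged cells. The rule found 36 members among 22362 kept cells assigned to a sample. The negative samples of injections 1 to 6 held 4, 6, 8, 11, 2 and 4 members, or 0.154%, 0.223%, 0.345%, 0.358%, 0.0575% and 0.121%. The positive samples held 0, 0, 0, 0, 1 and 0 of 423, 485, 955, 249, 2140 and 637 cells. Every positive sample lay below every negative sample: the means were 0.00779% ± 0.0191 and 0.210% ± 0.122 (SD, n = 6), a difference of -0.202 percentage points with p = 0.00216 (exact permutation test, two-sided, the smallest that 924 assignments allow). Without both samples of injection 5, the positive sample with the member, the difference was -0.240 (exact p = 0.00794, n = 5). Each positive sample alone was too small to show this, since the counts of 0 allow shares of up to 0.314% to 1.2%. Positive cells were deeper, with median UMI counts of 3641 to 10766 per sample against 2532 to 3991 in the negative samples.

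Tagged MHC class II cells were nonetheless present in the IIA bone. They numbered 7, 40, 72, 3, 24 and 8 in the positive samples (3.50% ± 3.41 of kept cells, SD, n = 6) and 17, 38, 16, 44, 11 and 17 in the negative samples (0.836% ± 0.472, SD, n = 6). Their share was higher in the positive sample of 5 of 6 injections (exact permutation p = 0.0238, n = 6). Members made up 23.5%, 15.8%, 50%, 25.0%, 18.2% and 23.5% of them in the negative samples, and in the positive samples 4.17% in injection 5 and 0% elsewhere. The difference of means was -25.3 percentage points (0.694% ± 1.70 against 26.0% ± 12.3, SD, n = 6; exact permutation p = 0.00216), with no overlap. In the intracardiac bone samples the difference had the same sign and did not pass its test, as given above. The 3 p-values of the IIA samples are not adjusted for each other, and their tests did not pair the samples by injection. The rule uses raw UMI counts and the positive cells were deeper. The part of depth in the higher share of tagged MHC class II cells was not tested. Whether the experiments differ was not tested, and they also differ in injection, library chemistry and Cell Ranger version.

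**Figure D3:**
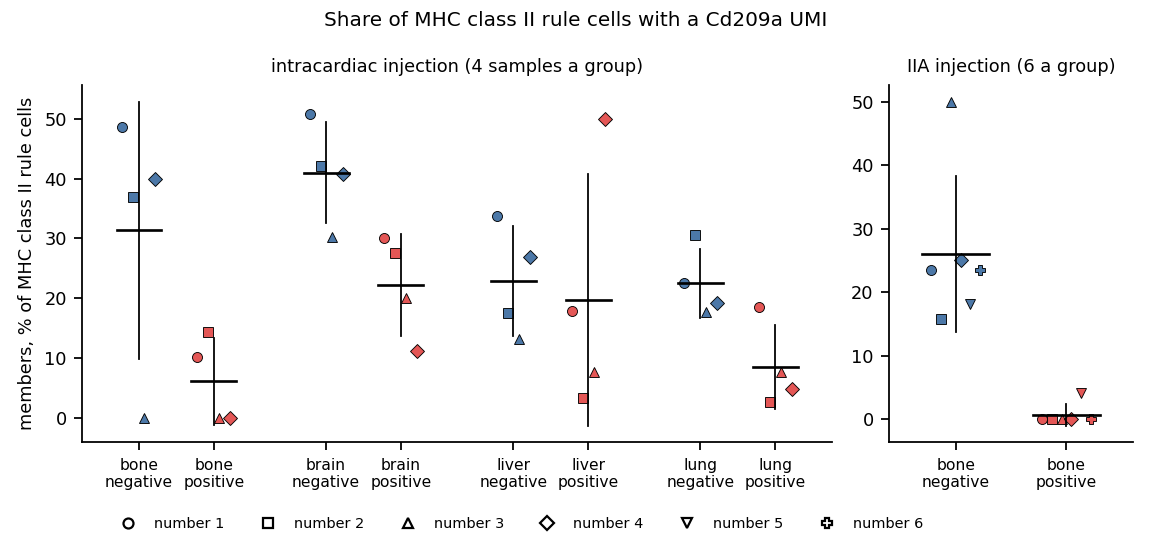
Members as a percentage of MHC class II cells in each sample (left, intracardiac injection; right, IIA injection). Points are samples shaped by replicate or injection number, blue for biotin negative and red for biotin positive, horizontal bars are means and vertical lines 1 SD; positive and negative brain samples do not overlap, and neither do those of the IIA bone.

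Gene expression of members was compared between tissues in the biotin negative samples with at least 10 members, 4 of brain, 3 of liver and 3 of lung, with edgeR's quasi-likelihood test over 3557 genes. Each tissue was set against the mean of the other tissues, and 14 samples in all entered the fit to estimate the spread. The 3 comparisons are thus not independent, since a gene high in 1 tissue tends to be low in the comparisons of the others. No replicate block was used here, and the counts with such a block are given in the closing paragraph. In brain members 5 genes passed at a false discovery rate (FDR) of 0.05, all higher, which is 0.141% of the genes tested. The calls depended on single samples: 0 genes were called without any 1 of the 3 liver samples or without lung replicate 1. Leaving out brain replicate 4 gave 1 call, brain replicate 2 gave 2, lung replicate 3 gave 3, brain replicates 1 or 3 gave 6 and lung replicate 2 gave 9.

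Ccl2, a chemokine that draws CCR2-bearing monocytes, was at 297, 810, 168 and 323 CPM in the members of brain replicates 1 to 4. It was at 4.17, 23.7 and 0 CPM in those of liver and at 192, 283 and 31.3 CPM in those of lung. Brain lay above liver throughout and overlapped with lung, and the log2 fold change was 3.51 (SE 0.587, edgeR FDR 0.0363). Tnf, an inflammatory cytokine, was at 130, 122, 87.2 and 41.6 CPM in brain members. It was at 14.6, 7.92 and 27.0 CPM in liver and at 18.3, 46.1 and 31.3 CPM in lung, a log2 fold change of 2.20 (SE 0.388, edgeR FDR 0.0465). Brain replicate 4 lay within the range of lung and the other 3 above it. Capg, an actin capping protein named here after its values were seen, was at 167, 158, 131 and 87.8 CPM in brain, at most 31.7 in liver and at most 98.8 in lung (log2 fold change 1.85, SE 0.334, edgeR FDR 0.0473).

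The calcium-binding proteins S100a8 and S100a9, abundant in neutrophils, were the other 2 called genes. S100a8 was at 8502, 2984, 1127 and 6961 CPM in brain members, 851, 705 and 1120 in liver and 402, 639 and 1034 in lung, with no overlap (log2 fold change 2.74, SE 0.420, edgeR FDR 0.0218; 0.365% of all genes were higher in brain with no overlap). S100a9 followed it, with 2.78 (SE 0.419, edgeR FDR 0.0218). All 8 tested genes of the neutrophil list were higher in brain members, with a median log2 fold change of 2.76 against 0.02 over all genes, and 2 of them passed. These levels rested on few cells. Of the brain members, 3, 1, 1 and 2 in replicates 1 to 4 were among the 5% of cells of their sample with the highest Scrublet doublet score. S100a8 and S100a9 together were at 20285, 6508, 2467 and 13478 CPM with these cells and at 927, 1542, 2500 and 1538 CPM without them, so that replicate 3 alone kept its level. Without such cells in all samples the log2 fold changes were 0.44 for S100a8 and 0.42 for S100a9 (edgeR FDR 0.883 for both). Those of Ccl2, Tnf and Capg stayed at 3.45, 2.46 and 1.80 but no longer passed (edgeR FDR 0.111 for each). T cells of the same brain samples, which are not known to make them, held both together at 28012, 2936, 22682 and 40028 CPM. Neutrophils were 32.7%, 61.1%, 28.5% and 64.5% of the kept cells there, and their part in the brain difference was not tested beyond these values.

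Other gene groups leaned to a single side in brain members without passing. All 14 stress and immediate early genes were higher, with a median log2 fold change of 1.08 against 0.02 over all genes, but 0 passed and the smallest edgeR FDR among them was 0.148. Jun had 1.22 (SE 0.280) and Egr1, an early response transcription factor, 1.62 (SE 0.445). Markers of macrophages were also higher, 9 of 10 with a median of 1.42, as were 10 of 11 C-type lectins with a median of 0.67, and 0 of either list passed. The part of other cells' RNA in these groups was not tested. MHC class II genes were near even, with 7 of 12 higher and a median of 0.07. Of 12 MHC class I presentation genes 9 were lower, with a median of -0.12 and 0 past the threshold.

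In liver members no gene passed with edgeR in the main fit, 0.0% of 3557, with 279 genes at an unadjusted p under 0.05 and 12 called by DESeq2. With a replicate block some genes did pass, as counted in the closing paragraph. The lowest FDR belonged to Tnip3 and Ccl2. Tnip3 was at 35.5, 135 and 27.0 CPM in the 3 liver samples, 357, 530, 480 and 485 CPM in brain and 923, 428 and 198 CPM in lung. Liver lay below both other tissues with no overlap, as did 0.843% of all genes, and the log2 fold change was -3.04 (SE 0.521, edgeR FDR 0.0618). Ccl2 had -5.08 (SE 0.894, edgeR FDR 0.0618). Of 10 tested NF-kB feedback genes 9 were lower in liver members, with a median of -0.93 against 0.01 over all genes and 0 past the threshold. Among them were Nfkbiz, an inhibitor-like cofactor of NF-kB, at -1.96 (SE 0.407), and Tnfaip3, which encodes the deubiquitinase A20, at -2.31 (SE 0.563). Beside these, 10 of 13 chemokine genes were lower (median -0.89), 7 of 8 neutrophil genes were lower (median -1.05) and 11 of 11 cell cycle genes were higher (median 1.22), with 0 past the threshold, and their part in the NF-kB group was not tested. Cd83 had a UMI in 22.8% of the 92 negative liver members and in 64.5% of the 138 negative brain members; at 2000 UMIs per cell these shares were 6.59% and 41.5%.

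Mgl2 and Ccl17 were also low in liver members without passing. Mgl2 was at 225, 364 and 0 CPM in liver members and at 564 to 1107 CPM in the 4 brain samples, while lung held 375, 711 and 198 CPM. Ccl17 was at 33.4, 0 and 0 CPM in liver. It was at 390, 329, 106 and 27.7 CPM in brain and at 430, 1060 and 0 CPM in lung, so that lung samples spanned the whole range. By contrast Flt3 stayed within 73.1 to 230 CPM in the 10 samples, with a log2 fold change of 0.44 in liver (SE 0.286, edgeR FDR 0.812).

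In lung members no gene passed with edgeR in the main fit, which has no replicate block, 0.0% of 3557, with 257 at an unadjusted p under 0.05 and 2 called by DESeq2. Of the NF-kB feedback genes 9 of 10 were higher here, with a median of 0.47 against -0.02 over all genes. Larger medians in the same direction included those of 3 of 3 migratory dendritic cell genes (3.78), 9 of 13 costimulatory genes (0.71) and 6 of 7 chemokine receptors (0.70). In the other direction, 8 of 8 neutrophil genes (-1.80), 8 of 10 macrophage genes (-1.29) and 10 of 11 cell cycle genes (-1.49) were lower in lung members. In these groups 0 genes were past the threshold. Their part in the NF-kB group was not tested. These shifts are not separate from those of brain and liver, since each tissue was set against the others. Tnip3 had 1.56 (SE 0.414, edgeR FDR 0.369). The biotin positive lung members, 36 of 42 of them in replicate 1, were high in several activation genes. In that sample Tnip3 was at 1267 CPM and Ccl17 at 1475 CPM, while Cd83 was at 784 CPM there and at 1243 CPM in negative lung replicate 1. After thinning to 2000 UMIs, 71.4% of the 42 had a UMI of Tnip3, 38.1% of the chemokine Ccl22 and 19.0% of Ccr7, against 38.8%, 6.12% and 2.04% of the 49 negative lung members. Within replicate 1 and before thinning, Tnip3 was found in 33 of 36 positive and 9 of 11 negative lung members and Ccr7 in 20 of 36 and 5 of 11, so the sorts were closer there. As these values come mostly from 1 sample, no test was made.

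**Figure D4:**
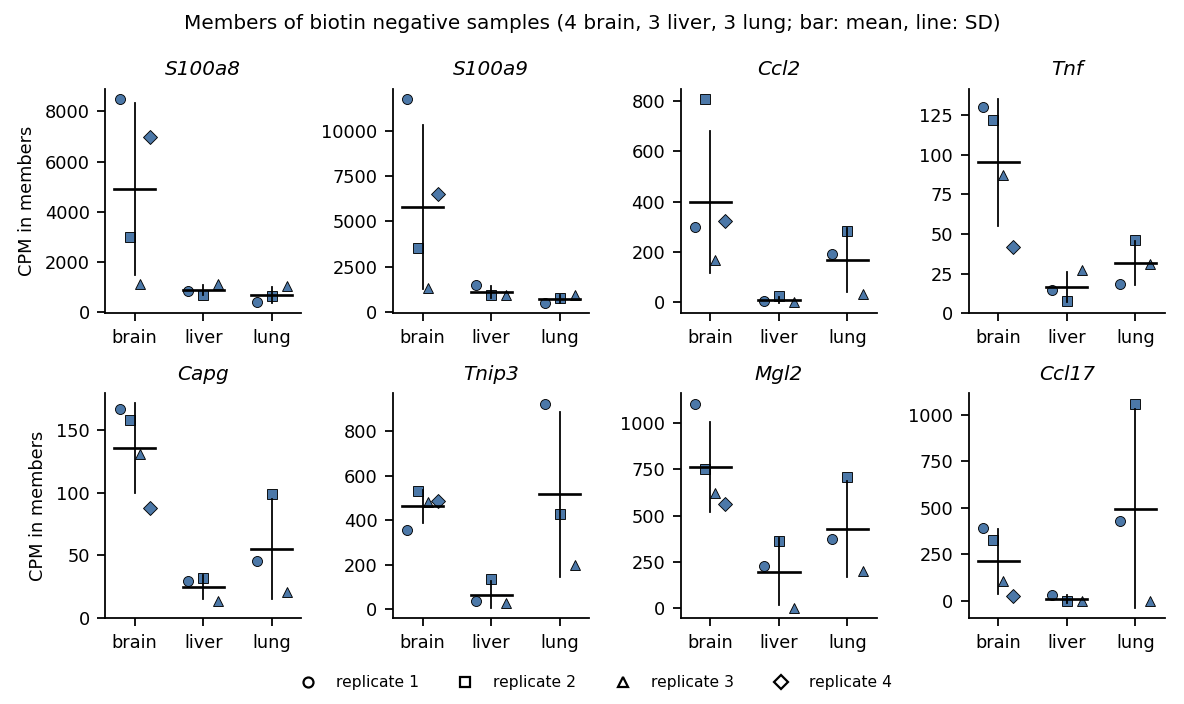
Levels of 8 genes in members of biotin negative brain, liver and lung samples, in CPM on linear axes. Points are samples shaped by replicate number, horizontal bars are means and vertical lines 1 SD; Tnip3 and Ccl2 are lowest in liver, and the S100a8 and S100a9 levels of brain are spread from about the level of the other tissues upward.

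Tagged and untagged members could not be compared within a tissue as planned, because no tissue had 2 positive samples with at least 10 members. A fit added after the data had been seen compared the 5 positive samples with at least 5 members (replicate 1 of each tissue and replicate 2 of brain) with 14 negative ones, with tissue as a term. The positive samples were mostly of replicate 1 and the negative ones of all replicate numbers. Sort and replicate number therefore partly go together in this fit, and its count with a replicate block is given in the closing paragraph. The fit called 1 of 1961 genes, or 0.051%. Lmnb1, which encodes the nuclear envelope protein lamin B1 and was named after its values were seen, was higher by 1.27 on the log2 scale (SE 0.216, edgeR FDR 0.0198). Its positive levels were 36.6 and 116 CPM in the brain samples, 206 CPM in that of bone, 260 CPM in that of liver and 182 CPM in that of lung, and its negative levels were 48.3 to 118 CPM. Of the 5 cell cycle genes tested, 5 were higher beside it, with a median log2 fold change of 1.84 against 0.01 over all genes and 0 past the threshold. The proliferation marker Mki67 had 2.16 (SE 0.594, edgeR FDR 0.183). Its positive levels were 0 CPM in bone, 0 and 96.8 CPM in the brain samples, 260 CPM in liver and 195 CPM in lung, against 0 to 131 CPM in the negative samples, so the tagged members of bone and of 1 brain sample had none. With at least 10 members per sample Top2a, a DNA topoisomerase of dividing cells, was called too, at 3.49 (SE 0.592, edgeR FDR 0.0348). The Lmnb1 call was lost without the positive sample of bone, liver or lung or without that of brain replicate 2 (edgeR FDR 0.0914 to 0.234).

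The complement genes C1qa, C1qb and C1qc and the lipoprotein gene Apoe, products of macrophages, were also higher in tagged members, without passing. Their log2 fold changes were 2.34 (SE 0.604), 2.42 (SE 0.571), 2.51 (SE 0.581) and 1.71, with edgeR FDRs of 0.165 to 0.251. In replicate 1 alone, chosen after the data had been seen, 4 positive samples were set against 4 negative ones. There 3 of 1783 genes passed, 0.168%: C1qa at 6.17 (edgeR FDR 2.2e-05), C1qb at 5.60 (edgeR FDR 3.1e-05) and Apoe at 1.40 (SE 0.205, edgeR FDR 0.0141). Over all 5 positive samples 6 of 8 macrophage genes were higher (median 1.5) and 9 of 10 classical monocyte genes lower (median -0.88), with 0 past the threshold. Lower values with a like FDR included those of the calcium-binding gene S100a4 at -0.58 (SE 0.128, edgeR FDR 0.165), the interferon-induced gene Ifitm1 at -2.53 (SE 0.646, edgeR FDR 0.178) and Cd7 at -2.27 (SE 0.637, edgeR FDR 0.183), the first 2 named after their values were seen. The folds of C1qa and C1qb rest on few negative UMIs and depend on the prior count. In the negative members of replicate 1 the 3 C1q genes together had 2, 7, 3 and 1 UMIs in bone, brain, liver and lung. In the positive members of the same tissues they had 20, 82, 108 and 155.

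As levels, C1q in the replicate 1 members of bone was 317 CPM in the positive and 15.4 CPM in the negative sort. For brain these levels were 1499 and 26.0 CPM, for liver 719 and 6.26 CPM and for lung 343 and 9.14 CPM. The positive sample was higher in all 4 tissues. The same held for the MHC class II cells without a Cd209a UMI in replicate 1. Their C1q level was 3853 against 163 CPM in bone and 3178 against 2619 CPM in brain. It was 6554 against 914 CPM in liver and 3190 against 835 CPM in lung. The C1q UMIs were found in 4 of 9, 3 of 6, 4 of 17 and 9 of 36 positive members and in 2 of 18, 4 of 30, 3 of 59 and 1 of 11 negative members of bone, brain, liver and lung. Free C1q RNA also differed between the sorts of these libraries. In neutrophils, which are not known to make C1q, bone had 61.9 CPM in the positive and 16.9 CPM in the negative sort. Brain had 80.5 and 22.1 CPM, liver 45.7 and 11.9 CPM, lung 46.3 and 24.3 CPM. Outside replicate 1 the direction was mixed. Of 10 further pairs of the same tissue and number with members in both sorts, most with few tagged members, C1q was higher in the positive sort in 3, lower in 5 and at 0 in both sorts in 2. Brain replicates 2 and 3 had 891 and 1933 CPM positive against 523 and 324 CPM negative, and brain replicate 4 had 367 against 513 CPM. In liver replicate 2 had 5934 against 71.2 CPM and replicate 3 had 0 against 432 CPM. Bone replicate 2 (0 against 171 CPM) and lung replicates 2 (59.8 against 92.2 CPM) and 3 (0 against 10.4 CPM) were lower in the positive sort. The part of free RNA in the difference between members was not tested.

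**Figure D5:**
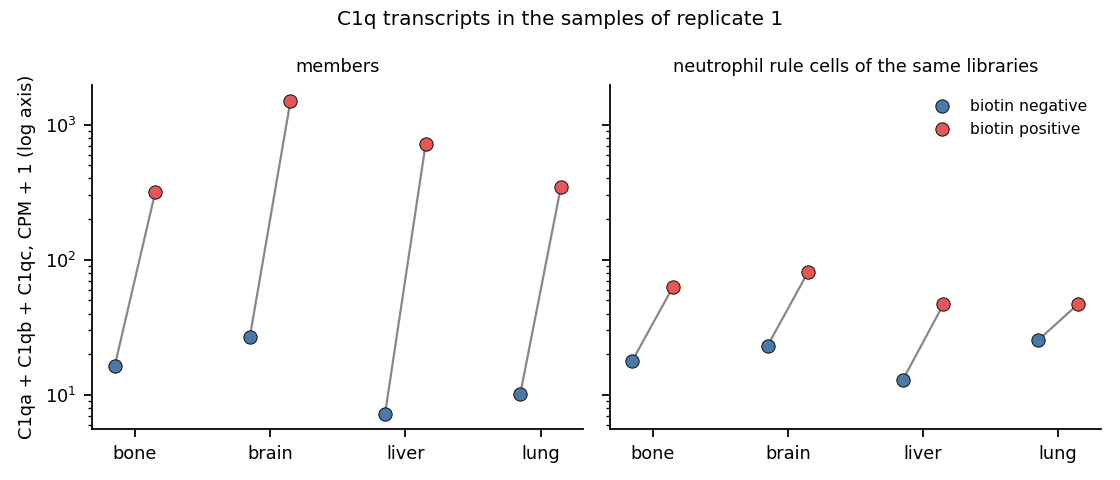
Summed level of C1qa, C1qb and C1qc in the samples of replicate 1, in CPM plus 1 on a log axis, for members (left) and for neutrophils of the same libraries (right). Each line joins the biotin negative (blue) and biotin positive (red) sample of a tissue; members go from between 6.26 and 26.0 CPM to between 317 and 1499 CPM, and neutrophils from between 11.9 and 24.3 to between 45.7 and 80.5 CPM.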

How the data were processed

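The values are raw UMI counts of genes in cells, as the authors deposited them in 32 intracardiac matrices and 1 pooled IIA bone matrix. The submitters' processing notes name mm10, Cell Ranger and Seurat, and per the file headers different Cell Ranger versions made both kinds of matrix. Per the labels' protocols, the intracardiac libraries were CellPlex 3′ libraries already separated by sample, and the IIA library was a TotalSeqC 5′ library. Its cells were assigned here to the hashtag with at least 10 counts and 3 times the second, which placed 22685 of 26666 barcodes. The deposited key and the matrix name the hashtags with different prefixes, and they were matched by number, so every IIA value rests on that match. No doublets were removed in the main values, and the 5% of cells per sample with the highest Scrublet score (scanpy 1.11.5), 34 members among them, were left out as an alternative.

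The share of members among MHC class II cells, the biotin fit over tissues and the fit of replicate 1 alone were chosen after seeing the data. Shares were tested per sample by two-sided exact permutation tests with Benjamini-Hochberg adjustment. Counts were summed over the members of each sample with at least 10 members, filtered with filterByExpr, normalized with TMM and tested with edgeR 4.0.16 (quasi-likelihood); DESeq2 1.42.0 was an alternative. Printed CPM values are not TMM adjusted. In simulated counts for the brain contrast (3065 genes) 38.8% of 2-fold, 80.6% of 4-fold and 97.0% of 8-fold changes were recovered, with 7 false calls. The changed genes were drawn only from those above a set mean level. The simulated counts held no doublets and no gene-specific spread. Genes to name were those of the gene lists, and, from a whole-table test, up to 10 per direction by fold change among genes past an FDR of 0.05 without overlap; beside other cells, the 20 largest ratios among genes found in at least 20% of members. The members and lists were chosen with earlier results of these data known. Gene positions come from GENCODE M21 and promoter windows from RefSeq.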

Additional observations from a re-analysis of the deposited data

Results flagged for a closer look

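The brain difference between the sorts in the share of members stood apart from that of the other tissues by -1.02 percentage points, with the exact test and the settings that end it given above. Of 25 groups of 4 or 6 samples tested for a sample far from the rest, 4 had such a sample. The usual chance rate of about 1 in 20 does not apply to shares, which cannot fall below 0. In biotin negative liver replicate 1 had a share of 1.75% where the other 3 samples lay between 0.552% and 0.643%. In the biotin negative IIA samples members made up 50% of the MHC class II cells of injection 3 and 15.8% to 25.0% elsewhere. In the biotin positive IIA samples injection 5 had a member share of 0.0467% of kept cells and of 4.17% of MHC class II cells, from 1 member, where all others were at 0. Both flags rest on this 1 cell, and with all others at 0 any share would be flagged.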

How the results depend on the processing

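Without single samples, the positive minus negative share difference ran from -0.136 to 0.0756 percentage points in bone, -1.57 to -0.519 in brain, -0.433 to 0.0838 in liver and -0.298 to 0.0645 in lung. It was 0.0711 in liver and 0.0344 in lung after thinning to 2000 UMIs, and 0.0340 in lung with at least 2 Cd209a UMIs. The brain minus other tissues gap ran from -1.27 to -0.615 without single brain pairs and was -0.821 thinned and -0.811 on the log2 scale; the liver gap was -0.0878 and the lung gap -0.209 on the log2 scale, and the liver gap ran from -0.0309 to 0.309 without single liver pairs. Members among MHC class II cells in liver differed by -13.2 to 2.35 points without single samples. The IIA difference in the share of kept cells ran from -0.232 to -0.172 without single samples. An edgeR test of cell numbers of positive against negative gave log2 folds of -1.06 in brain, -0.50 in liver, -0.24 in bone and -0.07 in lung (adjusted p of 0.852 to 0.935).

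Counts of genes called in brain, liver and lung were 5, 0 and 0. They were 9, 12 and 2 with DESeq2 and 78, 102 and 78 with no filter on low counts. In brain 2 were called with the negative groups alone, 0 with at least 2 Cd209a UMIs and 0 without the top Scrublet scores, where lung had 1. Liver had 1 with at least 5 members per sample. Without single samples they ran from 0 to 9, 0 to 4 and 0 to 1. The fit over tissues called 1 gene, 3 in replicate 1 alone, 0 in brain alone, 82 with no filter, 2 with at least 10 members and 0 to 1 without single samples. The causes were not tested.

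The labels do not say what a replicate number marks, so no block was used in the main values. Samples of the same number had correlated deviations of 0.0458 to 0.370 in 9 pairs (median 0.153, 7 over 0.1), against -0.303 to 0.0643 in 24 other pairs, and 9 of 9 samples correlated best with their own number. As a hint from the data, same numbers also shared no barcode. With a replicate block the counts were 16, 8 and 1, the fit over tissues called 1, and the exact sign-flip test of shares gave p = 0.125 for brain, 0.50 for bone, 0.63 for liver and 1 for lung. Blocked by injection, the IIA difference had p = 0.0313 (exact, n = 6). The planned biotin contrasts of expression within and between tissues, the bone contrast and the alternative with at least 20 members could not be fitted, since too few samples held enough members.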
